A study of Neotoma stephensi and Rattus norvegicus with 6 samples.

Results

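A set of 9 keratin genes was examined in the foregut, the nonglandular upper part of the stomach, of Stephen's woodrats and lab rats. It held the basal keratins Krt14 and Krt15, the stress-inducible or follicular keratins Krt6b and Krt75, and Krt23, Krt12, Krt19, Krt24 and Krt72. The 9 genes were chosen by symbol from the 40 keratins in the files, which list 15481 genes in all, and the choice was made with woodrat-against-lab rat results of these data already known. Differences between the species in these 9 genes are therefore given as a description, with standard errors but without p-values. The lists of other genes set beside them were also drawn up with such results known, so the FDRs printed for list genes are not independent evidence. The 9 keratins comprise 6 of the 25 type I and 3 of the 15 type II keratins counted.

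Foregut RNA was sequenced from 3 female Neotoma stephensi, which were caught in the wild and fed juniper until dissection the day after they reached the laboratory, and from 3 virgin female Sprague Dawley rats, which came from a commercial breeder and were kept on standard chow for months. Species, diet, origin and housing differed together between the groups and cannot be told apart. The labels call all 6 animals virgin, whereas by the methods of the study the breeding history of the woodrats is unknown. Each library came from 1 animal and held between 5439642 and 7932637 counted reads, and abundance is given as CPM, read counts scaled to a common library size, after TMM normalization.

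Keratins form the intermediate filaments of epithelial cells, and each filament is built from pairs of 1 type I and 1 type II protein. In stratified squamous epithelium the basal layer makes Krt5 with Krt14 and Krt15, and cells that move upward switch to other pairs, such as Krt1 with Krt10 in skin or Krt4 with Krt13 in oesophagus. Injury or inflammation induces Krt6, Krt16 and Krt17, whereas Krt19 is typical of simple and ductal epithelia and Krt12 of the cornea. The foregut of both rodents is lined by a keratinized squamous epithelium.

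In short, reads assigned to Krt12 were abundant in every lab rat and nearly absent from every woodrat, while Krt24 and Krt19 showed the opposite pattern. Krt6b was also higher in all 3 woodrats, but 1 of them stood far above the others. For Krt14, Krt15, Krt75, Krt23 and Krt72 the CPM of the species overlapped. All 9 genes had at least 1 CPM in 3 or more animals, which was the condition for entering the fit. Woodrats were all above lab rats in 3 of the 9 genes, where 28.8% of the 12603 genes fitted showed this order, and lab rats were all above woodrats in 1, where 27.4% did. At a false discovery rate (FDR) below 0.01 in edgeR's quasi-likelihood test, 3 of the 9 passed, against 20.0% of all genes fitted, with 2 toward woodrats (10.3% of all) and 1 toward lab rats (9.71% of all). The count was 2 without woodrat 2, without lab rat 2 or without lab rat 3, and 4 in DESeq2. Nothing is read from these counts, since the choice of genes was not independent of the contrast.

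**Figure D1:**
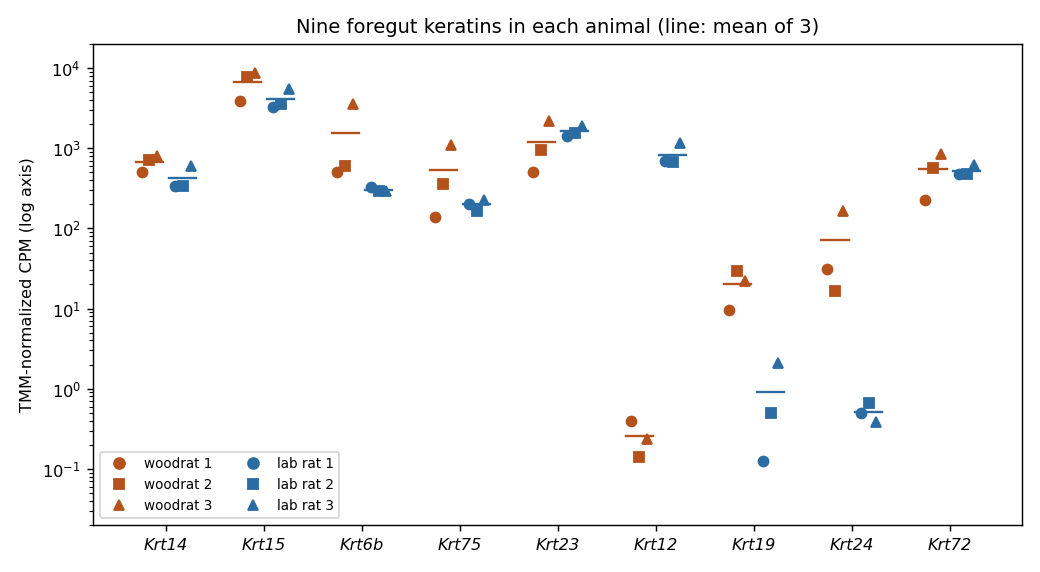
TMM-normalized CPM (log axis) of the 9 keratins in each woodrat (brown) and lab rat (blue), with a line at the mean of 3 animals. Krt12 lies near or below 0.391 CPM in woodrats and at 666 CPM or more in lab rats, Krt19 and Krt24 are reversed, and woodrat 3 stands far above the other two woodrats for Krt6b.

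Keratin and muscle reads both differed between the animals, and their part in the results for single genes was not tested. Keratin reads made up 2.32%, 4.80% and 8.95% of the counted reads of woodrats 1, 2 and 3, and 10.1%, 9.17% and 8.45% of those of lab rats 1, 2 and 3. The summed CPM of 11 smooth muscle markers, such as Myh11, Des and Cnn1, ran from 53689 to 161224 in woodrats and from 16226 to 30716 in lab rats, and was highest in woodrat 1. Woodrat 1 was the lowest woodrat for 7 of the 9 keratins and woodrat 3 the highest for 7 of them. Lab rat 3 was the highest lab rat for 7 of the 9. In bulk tissue, fewer cells of a type and less RNA per cell cannot be told apart. All 16 basal layer and hemidesmosome genes listed were counted and fitted, and 3 passed the FDR, all toward woodrats. These were Itga3 (log2 fold change 1.95, SE 0.35, FDR = 0.00398, edgeR), a laminin-binding integrin subunit, and the cytolinkers Plec (1.73, SE 0.29, FDR = 0.00289) and Dst (1.38, SE 0.26, FDR = 0.00437). With each animal left out in turn they passed in 2, 3 and 2 of 6 fits, and none of the list passed without lab rat 1, without lab rat 2 or without lab rat 3. The median log2 fold change of the list was 0.10, against 0.03 over all genes fitted. The basal transcription factor Trp63 had 3.32, 11.4 and 100.6 CPM in the woodrats against 87.5, 80.1 and 35.8 CPM in the lab rats, so the range of the woodrats took in that of the lab rats. Plec and Dst are also made by muscle, and their share from muscle was not tested.

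Among the basal keratins, Krt14 (ENSMUSG00000045545.8), the usual type I partner of Krt5, had 509, 714 and 797 CPM in woodrats 1, 2 and 3 and 338, 336 and 599 CPM in lab rats 1, 2 and 3. The lowest woodrat lay below the highest lab rat. The woodrat mean was 674 ± 148 CPM (SD, n = 3) and the lab rat mean 424 ± 151 CPM (SD, n = 3), and the log2 fold change of woodrats over lab rats was 0.67 (SE 0.34). Krt15 (ENSMUSG00000054146.8), a second basal type I keratin that also marks stem cells of the hair bulge, had 3902, 7650.2 and 8678 CPM in the woodrats against 3287, 3597 and 5542 CPM in the lab rats. Again only woodrat 1 fell inside the range of the lab rats, of which lab rat 3 was the highest for Krt14 and Krt15. The log2 fold change of Krt15 was 0.70 (SE 0.46), with means of 6743 ± 2514 CPM and 4142 ± 1222 CPM. With any 1 animal left out it stayed between 0.48 and 0.98, and that of Krt14 between 0.53 and 1.00. Without lab rat 3 the values were 0.97 for Krt15 and 1.00 for Krt14. Their type II partner Krt5 overlapped too, at 519 ± 272 CPM against 668 ± 83.3 CPM, and its log2 fold change was -0.36 (SE 0.41, FDR = 0.507, edgeR).

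Set against Krt5, which is made by the same cells, the 2 basal keratins separated the species. For each Krt5 read, the woodrats had 2.04, 1.39 and 1.00 reads of Krt14 and the lab rats 0.492, 0.582 and 0.809. The corresponding numbers for Krt15 were 15.6, 14.9 and 10.9 in woodrats against 4.79, 6.24 and 7.48 in lab rats. On this scale the log2 fold change was 1.24 for Krt14 and 1.16 for Krt15. This measure was added after the CPM values had been seen. Against the mean of the basal layer genes listed other than Krt5, a planned scale, the values were 0.54 and 0.51. Of the 9 keratins, 7 had a ratio to Krt5 that was higher in all woodrats (28.2% of all genes fitted) and 1, Krt12, a ratio higher in all lab rats (11.4% of all genes fitted). Only Krt23 overlapped, with 2.03, 1.84 and 2.74 reads per Krt5 read in woodrats against 2.06, 2.71 and 2.56 in lab rats. A higher ratio in woodrats was not particular to basal keratins. The mean log2 ratio to Krt5 reads was higher in woodrats by 1.21 for Krt14 and 1.17 for Krt15. For the suprabasal Krt13 and for Krt27 the same difference was 1.00 and 1.19. For others it was negative, such as Krt1 (-2.31) and Krt10 (-2.42).

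Krt6b (ENSMUSG00000023041.6), a type II keratin induced in wounded and hyperproliferative epithelium and present in the lining of the mouth, had 501, 600.2 and 3612 CPM in the woodrats. The lab rats had 332, 289 and 295 CPM, a narrow range that lay below every woodrat. The log2 fold change was 2.36 (SE 0.73), from means of 1571 ± 1768 CPM and 305 ± 23.2 CPM (SD, n = 3). Woodrat 3 carried most of this difference, and without it the log2 fold change was 0.85. Krt75 (ENSMUSG00000022986.5), a close relative of Krt6, is best known from the companion layer of the hair follicle. It rose in the same order over the woodrats, with 139.6, 354 and 1108 CPM. The lab rats had 203, 164 and 229 CPM, an order unlike that of Krt6b. Here woodrat 1 lay below all 3 lab rats. Its log2 fold change was 1.43 (SE 0.64), or 0.31 without woodrat 3.

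Other genes linked to keratinocyte stress were examined beside Krt6b. Of 18 such genes listed, 15 were in the files and 12 could be fitted, and Il1b alone passed the FDR, toward lab rats (FDR = 0.00388, edgeR). This cytokine gene had 1, 1 and 0 reads in woodrats against 15, 10 and 11 reads in lab rats. It reached the 1 CPM needed for the fit in lab rats only, so its entry and its direction were tied. Il1b passed in 2 of the 6 fits that left out 1 animal. Krt16, the usual type I partner of Krt6, had 8.40, 4.30 and 8.41 CPM in woodrats against 3.23, 3.14 and 6.74 CPM in lab rats (log2 fold change 0.70, SE 0.45, FDR = 0.243). Krt17, another injury-associated type I keratin, was highest in woodrat 1, with 53.1, 27.5 and 14.3 CPM in woodrats against 10.4, 7.44 and 23.3 CPM in lab rats (log2 fold change 1.21, SE 0.56, FDR = 0.116). The median log2 fold change of the 12 genes was 0.43. Lcn2, an antimicrobial protein gene, was higher in all woodrats, with 3.32, 9.72 and 5.80 CPM against 1.86, 1.16 and 0.963 CPM, and lay just outside the threshold (log2 fold change 2.21, SE 0.52, FDR = 0.0110). Of the calprotectin genes, S100a8 had no more than 0.586 CPM in any animal and S100a9 had 8.79 CPM in woodrat 1 and at most 0.833 CPM in the others.

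Krt12 (ENSMUSG00000020912.4) encodes the type I keratin that defines the corneal epithelium. It was counted 5563, 4024 and 5969 times in lab rats 1, 2 and 3, which is 690.4, 666 and 1149.7 CPM. In the woodrats it was counted 2, 1 and 2 times, at or below the 3 reads taken as the limit of what a library can show. Pooled over the animals, the lab rat abundance was 3348 times that of the woodrats, with an exact 95% interval from 1435 to 10314 that covers counting error only. The fitted log2 fold change was -11.64 (SE 0.54), and it stayed between -11.96 and -11.35 when any 1 animal was left out.

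Other genes known from the cornea were examined beside Krt12. Of 6 listed, 4 were in the files and all 4 were fitted. Slurp1, a secreted protein of cornea and other squamous epithelia, passed toward lab rats, with 3.56 ± 2.76 CPM in woodrats against 145 ± 69.0 CPM in lab rats (log2 fold change -5.34, SE 0.74, FDR = 0.00150, edgeR). Aldh3a1, an aldehyde dehydrogenase that accumulates in the cornea, had 0.586, 37.6 and 26.5 CPM in woodrats against 222, 352 and 479 CPM in lab rats, and did not pass the threshold. Clu, a secreted chaperone, did not pass either, with a log2 fold change of 0.69 (SE 0.28). The summed CPM of the 4 genes ran from 555 to 933 in woodrats and from 1026 to 1629 in lab rats, and the part that this played beside Krt12 was not tested.

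Krt24 (ENSMUSG00000020913.3), a type I keratin of differentiated keratinocytes, was read 161, 121 and 1410 times in the woodrats and 4, 4 and 2 times in the lab rats. In CPM the woodrats had 31.4, 16.8 and 167, and the lab rats 0.496, 0.662 and 0.385, so no lab rat came near the lowest woodrat. The pooled woodrat abundance was 157 times that of the lab rats (exact 95% counting interval from 85.3 to 328). The fitted log2 fold change was 7.07 (SE 1.05), and 5.48 without woodrat 3.

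Krt19 (ENSMUSG00000020911.13), the smallest type I keratin, was read 49, 210 and 189 times in woodrats and 1, 3 and 11 times in lab rats. These counts correspond to 9.57, 29.1 and 22.4 CPM and to 0.124, 0.496 and 2.12 CPM. The pooled ratio was 27.8 toward woodrats (exact 95% counting interval from 16.6 to 50.0), and the fitted log2 fold change 4.59 (SE 0.79). Lab rat 3 held most of the lab rat reads, and without it the log2 fold change was 6.06.

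Because Krt19 is typical of glands and of the mesothelium that covers the stomach, markers of both were examined. Of 16 glandular stomach markers, 11 were in the files and 3 could be fitted. The summed CPM of the 11 was between 8.33 and 21.9 in woodrats and 25.3, 47.0 and 33.1 in lab rats 1, 2 and 3. In the lab rats most of this sum was the keratin Krt20, with 16.5, 36.7 and 25.6 CPM. Krt20 had at most 0.237 CPM in woodrats, so the sums are no measure of glandular tissue as a whole. Muc5ac, the mucin of gastric surface cells, passed toward woodrats with 3.32, 1.67 and 3.91 CPM and no read in any lab rat (FDR = 0.00305, edgeR). Krt20, a keratin of gastric and intestinal surface cells, passed toward lab rats with 133, 222 and 133 reads, against 0, 0 and 2 reads in woodrats (FDR = 0.000346, edgeR). Muc5ac and Krt20 each reached the 1 CPM needed for the fit in only 1 species, so their entry and their direction were tied. The acid pump gene Atp4a, the remaining fitted marker, had between 5.69 and 9.76 CPM in all 6 animals and did not pass (log2 fold change -0.51, SE 0.31, FDR = 0.216). The gland genes Tff2, Gkn1, Pgc and Muc6 had at most 0.195 CPM in any animal, whereas Gkn2 and Chia1 reached 1.76 and 1.37 CPM in woodrat 1. Of 10 mesothelial markers, 5 were in the files and 2, Msln and Rspo1, could be fitted. Neither passed in edgeR or in DESeq2, and 0 had an unadjusted p below 0.05. Krt18, a simple-epithelial keratin on both lists, had 43, 3 and 9 reads in woodrats against 4, 2 and 4 in lab rats, and was highest in woodrat 1, the woodrat with the lowest Krt19.

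Krt23 (ENSMUSG00000006777.7), a type I keratin, had 507, 943 and 2172 CPM in the woodrats against 1415, 1562 and 1895 CPM in the lab rats. The woodrats spanned the whole range of the lab rats, with means of 1208 ± 864 CPM and 1624 ± 246 CPM and a log2 fold change of -0.43 (SE 0.51). Krt72 (ENSMUSG00000056605.6), a type II keratin of the inner root sheath of hair, was likewise spread over 223, 569 and 848 CPM in woodrats against 481, 479.8 and 614 CPM in lab rats. Its log2 fold change of 0.06 (SE 0.45) did not exceed the spread between animals.

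Hair genes were examined beside Krt72 and Krt75. Of 22 hair follicle markers, 15 were in the files and 6 could be fitted, and only Krt25 passed, toward lab rats (3.62 ± 0.37 CPM in woodrats against 101 ± 22.3 CPM in lab rats, log2 fold change -4.80, SE 0.29, FDR = 0.000105, edgeR). The hair regulator Hoxc13 had at most 0.237 CPM, the hair sheath protein gene Tchh at most 1.49 CPM, and the hair shaft keratins Krt81, Krt83 and Krt86 at most 1.17 CPM in any animal. Krt27, by contrast, had between 241 and 915 CPM, Krt35 between 33.6 and 129 CPM and Krt73, like Krt72 a keratin of the inner root sheath, between 14.8 and 83.0 CPM. The transcription factor gene Foxn1, which acts in hair and in other keratinocytes, had between 1.37 and 10.4 CPM.

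Reads of keratin paralogues are hard to divide, and the deposited counts carry several signs that matter for single symbols. The authors aligned woodrat and lab rat reads to mouse coding transcripts and assigned each read to the mouse gene with the best score. Krt6a was on the authors' list of genes removed from the alignment targets and is not analysed here, so that reads of either Krt6 gene may stand under Krt6b. The study's own supplementary read counts divide keratin reads among the symbols differently from the deposited files, so each value for a single keratin holds for the deposited assignment. The study lists Krt24 and Krt19 among its largest changes toward woodrats and Krt12 among those toward lab rats. Its log2 fold changes for Krt24 and Krt19 are much larger than those given here. The counting intervals above do not cover such differences. In a secondary analysis the authors pooled keratin reads over the whole family.

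The ratio between the reads of 2 keratins gives a view of this within each library. It was computed for the 190 pairs of the 20 keratins with at least 10 reads in every animal, after the counts had been seen. The steadiest pair was Krt15 with Krt13, with an SD of the log2 ratio over the 6 animals of 0.11, against a median of 1.32 over all pairs. Krt15 had 0.465, 0.437 and 0.455 reads for each Krt13 read in woodrats against 0.391, 0.391 and 0.422 in lab rats, although Krt13 is a suprabasal and Krt15 a basal keratin. The next pair was Krt14 with Krt15, with an SD of 0.19. Krt35 with Krt73 (0.24), Krt23 with Krt5 (0.25) and Krt72 with Krt5 (0.25) completed the first 5. Of these, Krt35 with Krt73 and Krt23 with Krt5 each join a type I with a type II keratin. Krt75 with Krt6b was looser (0.60), at 0.279, 0.590 and 0.307 in woodrats against 0.613, 0.568 and 0.779 in lab rats. A steady ratio can arise where 2 genes share reads and where their transcripts keep in step, and the counts cannot tell these apart.

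**Figure D2:**
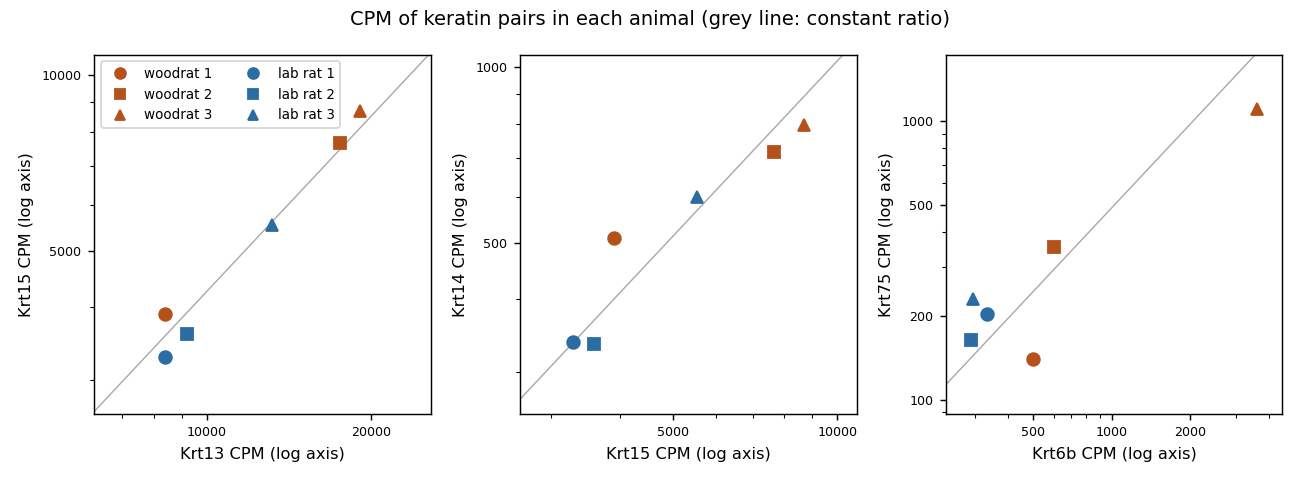
CPM of 3 pairs of keratins in each animal, on log axes, with a grey line at the geometric mean of their ratio. Krt15 and Krt13 keep nearly 1 ratio in all 6 animals (0.391 to 0.465 Krt15 reads for each Krt13 read), Krt14 and Krt15 nearly so, and Krt75 and Krt6b do not.

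Summing the reads of related keratins gives values that do not depend on how reads were divided within the group. Krt6b and Krt75 together had 641, 954 and 4721 CPM in woodrats against 535, 453 and 524 CPM in lab rats, and the log2 fold change of their sum was 2.06 (SE 0.71), or 0.66 without woodrat 3. Krt14 summed with Krt16, Krt17 and Krt42 gave a log2 fold change of 0.69 (SE 0.34), and Krt15 summed with Krt19 gave 0.71 (SE 0.46), both with overlapping species. Krt72 summed with Krt73 gave -0.03 (SE 0.45). Krt15 summed with Krt13, a pair added after the ratios were seen, gave 0.60 (SE 0.53). None of these sums turned the direction of the abundant member in it except that of Krt72, whose own value was near 0. No sum was run for Krt12 or Krt24, and Krt15 far outnumbered Krt19 in their sum. Whether reads of these 3 keratins went to another symbol was therefore not tested.

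As a share of all keratin reads, the 9 genes took 22.5%, 23.1% and 20.7% in woodrats 1, 2 and 3, against 7.38%, 8.59% and 10.2% in lab rats 1, 2 and 3. This scale does not depend on the share of keratin in a library but moves with Krt1 and Krt10, which took 9.80% ± 2.46 and 11.7% ± 7.78 of keratin reads in the woodrats, against 34.7% ± 2.62 and 37.0% ± 1.52 in the lab rats (SD, n = 3). On it, 8 of the 9 genes were higher in all woodrats, where 42.1% of all genes fitted were, and Krt12 was higher in all lab rats, where 7.96% were. This was not particular to the 9 genes. Among the other fitted keratins, Krt4, Krt5, Krt13, Krt16, Krt27, Krt77, Krt79 and Krt80 were also higher in all woodrats on this scale. Krt1, Krt10, Krt20, Krt25 and Krt78 were higher in all lab rats, and the remaining ones overlapped. Krt15 alone took 15.1%, 16.2% and 10.3% in woodrats against 3.60%, 4.36% and 5.48% in lab rats. The log2 fold changes on this scale were 1.70 for Krt14, 1.63 for Krt15 and 0.84 for Krt72. The share of Krt6b was 1.94%, 1.27% and 4.29% in woodrats against 0.363%, 0.350% and 0.291% in lab rats.

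**Figure D3:**
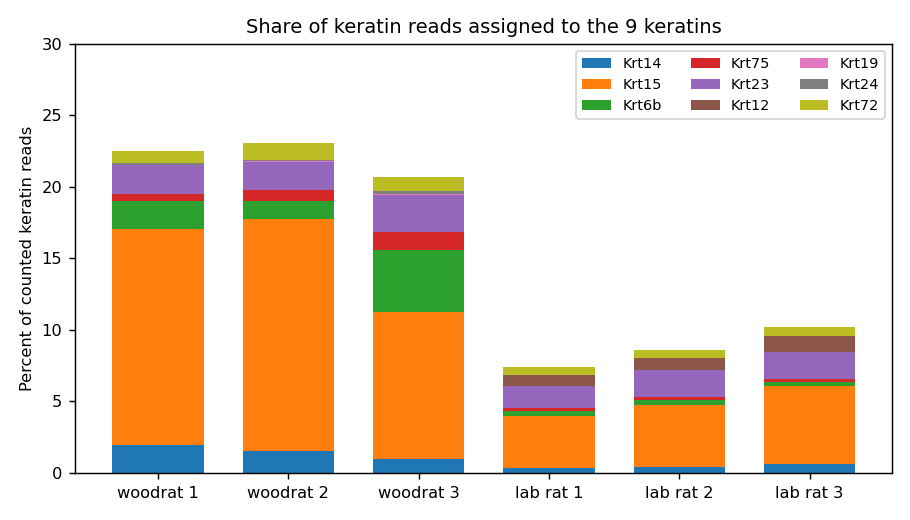
Percent of all counted keratin reads that were assigned to each of the 9 keratins, as stacked bars for the 3 woodrats and the 3 lab rats. The total lies between 20.7% and 23.1% in woodrats and between 7.38% and 10.2% in lab rats, and Krt15 is the main part of every bar.

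Of the 31 other keratins in the files, 17 could be fitted and 6 passed the FDR, 4 toward woodrats and 2 toward lab rats. Toward woodrats these were Krt79 (log2 fold change 7.89, SE 1.10, FDR = 0.00150, edgeR), Krt77 (5.08, SE 1.05, FDR = 0.00656), Krt4 (3.34, SE 0.68, FDR = 0.00627), the oesophageal partner of Krt13, and Krt80 (2.69, SE 0.60, FDR = 0.00886), a keratin of differentiating epithelia. All 4 were highest in woodrat 3, as 7 of the 9 keratins were. Krt79 reached the 1 CPM needed for the fit in woodrats only. Toward lab rats they were Krt20 and Krt25, given above. Leaving out each animal in turn, Krt20 and Krt25 passed in 6 of 6 fits, Krt79 in 5, Krt77 in 3, Krt4 in 2 and Krt80 in 1. The median log2 fold change of the 17 was -0.36, and 0.70 for the 9 keratins. The number past the FDR was 10 without woodrat 3 and 2 without lab rat 3.

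**Figure D4:**
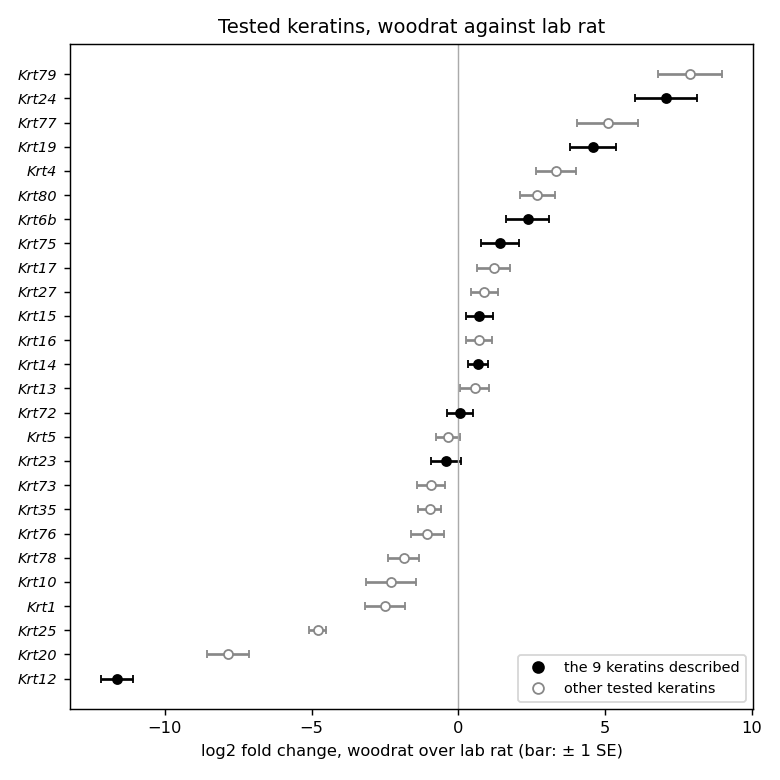
Log2 fold change of woodrats over lab rats for the 26 fitted keratins, with bars of 1 SE, the 9 keratins described in black and the other 17 open. Krt12 lies at -11.64 and Krt24 at 7.07, at either end of the scale with Krt20 and Krt79, while Krt14, Krt15, Krt72 and Krt23 lie near 0. Krt12 and Krt20 rest on 5 and 2 woodrat reads.

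The suprabasal programme around these keratins was mixed. Of 17 suprabasal squamous genes, 15 were fitted, with 4 past the FDR toward woodrats (Flg, Rptn, Krt4 and Krt80) and 3 toward lab rats (Ivl, Sprr3 and Krtdap). Their median log2 fold change was -1.07. Among the extremes, the filament-bundling protein gene Flg had a log2 fold change of 5.76 (SE 1.18, FDR = 0.00648, edgeR) and the envelope precursor Ivl -4.96 (SE 0.36, FDR = 0.000172). With each animal left out in turn Ivl passed in 6 of 6 fits, but Flg and Sprr3 in 2 and Rptn and Krtdap in 1, and the list had 1 gene past the FDR without woodrat 2, lab rat 1 or lab rat 2 and 2 without lab rat 3. Of 10 genes for proteins that anchor keratin filaments at desmosomes, 9 were fitted. Their median log2 fold change was -0.60, with 3 values above 0 and 6 below. Pkp2 alone passed, toward woodrats, with 17.2, 7.91 and 1.66 CPM against at most 0.385 CPM in lab rats (FDR = 0.00592). It reached the 1 CPM needed for the fit in woodrats only, so its entry and its direction were tied. Over the woodrats Pkp2 fell in the same order as the smooth muscle markers, and in the opposite order to Krt6b and Krt75. An order of 3 animals shows little, and the source of the Pkp2 reads was not tested. Pkp2 passed in 1 of the 6 fits that left out 1 animal. Of the 11 smooth muscle markers, 3 passed, all toward woodrats. None passed without lab rat 1 or without lab rat 3, 1 passed without woodrat 2, and 6 passed without woodrat 3.

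Outside the keratins, the genes whose log2 CPM followed Krt12 most closely over the 6 animals were Hgh1, Sfrp2 and Cpe, with Pearson correlations above 0.999. Such values largely restate the gap between 2 species and come from 6 points, and 113 genes reached 0.99. For Krt19 the closest were Plekha8, Fbxo2 and Pop4 (0.998, 0.997 and 0.993), and for Krt24 Ublcp1, Usp4 and Ube2d1 (0.994, 0.993 and 0.992).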

How the data were processed

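Foregut polyA RNA of 3 woodrats and 3 lab rats was sequenced, and species and replicate number were taken from the sample titles. The authors used Trimmomatic for trimming and FLASH for joining overlapping mates, aligned the reads with cross_match to the coding transcripts of mouse GENCODE release M7 on the matching strand, and deposited raw counts of uniquely assigned reads per mouse gene. Versions are not given in the sources used here. The labels name the build mm9. The authors describe a list of excluded genes, but some genes of that list are in the files.

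Counts were joined by gene identifier. The 12603 genes that reached 1 CPM in 3 or more animals were normalized with TMM and fitted with edgeR 4.0.16 in R 4.3.3 (legacy quasi-likelihood F-test, species as the only term, prior count 0.125, Benjamini-Hochberg adjustment over all genes fitted, FDR below 0.01). The SE is the log2 fold change divided by the square root of F. The CPM of 3 reads was between 0.355 and 0.586. No 2 animals of a species agreed within sampling noise (chi-square per degree of freedom from 10.1 to 121). Counting intervals come from exact binomial limits of the pooled reads. PCR duplicates were not marked by molecular identifiers, so these intervals cover counting error only. Levels of different genes were not ranked, since gene lengths were not used. The scripts were checked on simulated counts.

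The 9 keratins and the gene lists were chosen with earlier results of these data known. The named genes were the 9 keratins, other keratins that were fitted, up to 3 genes per list and direction with the largest changes past the threshold, markers near 0, and the 3 genes most like Krt12, Krt19 and Krt24. Further list genes (Trp63, Aldh3a1, Clu, Lcn2, S100a8, S100a9, Atp4a, Foxn1, Msln, Rspo1 and Krt18) were named after their values were seen, and 1 gene of the corneal list is not reported here. Alternatives were DESeq2 1.42.0, other normalizations, filters, prior counts and denominators, a replicate block, and each animal left out in turn with the same genes fitted.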

Additional observations from a re-analysis of the deposited data

How the results depend on the processing

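All limits rest on 3 animals per species and on reads assigned across species to mouse paralogues. Over every alternative and every fit without 1 animal, the direction of Krt14, Krt15, Krt6b, Krt75, Krt12, Krt19 and Krt24 was kept, whereas Krt23 ranged from -1.16 to 0.30 and Krt72 from -0.41 to 0.84 on the log2 scale. The planned sum of each keratin with its closest protein relative was not run, because no protein sequences were used.

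With keratin reads as the denominator, the log2 fold changes of Krt14, Krt15, Krt72 and Krt12 were 1.70, 1.63, 0.84 and -10.80. Against Krt5 reads, a scale chosen after seeing the data, Krt14 reached 1.24, and with a prior count of 2 Krt12 was -10.59. Against the mean of the basal layer genes listed other than Krt5, Krt14 and Krt15 were at 0.54 and 0.51. Leaving out 1 animal at a time gave 0.85 (without woodrat 3) to 2.79 for Krt6b, 0.31 (without woodrat 3) to 1.88 for Krt75, 3.98 to 6.06 (without lab rat 3) for Krt19, 5.48 (without woodrat 3) to 7.49 for Krt24, and 0.66 (without woodrat 3) to 2.49 for Krt6b summed with Krt75.

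The number of genes past the threshold was 2516 in all, 3916 with DESeq2, and 898 to 2626 with 1 animal left out. It was 3 for the 9 keratins (4 with DESeq2, 2 to 3 with 1 animal left out), 6 for the other keratins (3 with total counts only, 2 to 10 with 1 animal left out), 3 for basal layer genes (0 to 4), 1 for stress genes (0 at the 5 CPM filter, 4 with DESeq2, 2 with the newer method of edgeR, 0 to 3), 7 for suprabasal genes (2 with total counts only, 12 with DESeq2, 1 to 7), 1 for filament linkers (0 at the 5 CPM filter, 0 to 1), 2 for glandular markers (1 at the 5 CPM filter, 1 to 2), 1 for hair markers (1 to 3), 1 for corneal markers (2 without a filter, 2 with DESeq2, 1 to 2) and 3 for smooth muscle markers (5 with total counts only, 6 without a filter, 9 with DESeq2, 0 to 6). Fewer genes enter under the 5 CPM filter. The cause was not tested for the other settings.

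The labels number the animals of each species. Same-numbered animals deviated from their species means with a mean correlation of -0.20, against 0.10 for animals of different number. With 3 animals per species this cannot show whether the numbers carry a pairing. With the replicate block, 716 genes passed in all, 3 of the other keratins, 1 suprabasal, 1 glandular and 1 smooth muscle gene, and 0 basal layer, stress or linker genes. Of the 9 keratins, 3 passed there, and 1 turned direction, with a Krt72 log2 fold change of -0.12.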
